A study of Caenorhabditis elegans with 9 samples.

Results

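The pals genes are a family of the nematode Caenorhabditis elegans, named for the ALS2CR12 signature that their protein products share. The members were all spots of the array whose gene name has the form pals-number in the annotation of the array. This rule found 23 spots for 22 genes among 21888 spots and 7200 named genes, with pals-24 on 2 spots and every other member on 1. The RefSeq gene table of the WBcel235 assembly lists 39 pals genes, so 17 of them had no spot named for them here, among them all 7 of a cluster on chromosome III that includes pals-16, pals-17 and pals-20. All 22 members with a named spot had enough values to be tested.

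Many pals genes are switched on in the intestine by microsporidia and by the Orsay virus, natural pathogens that live inside intestinal cells. They are part of a shared program called the intracellular pathogen response, which heat and a blocked proteasome can also set off. pals-22 holds this program down and its neighbour pals-25 turns it on, while pals-5 is the gene most used to report it. The genes lie in clusters on several chromosomes.

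The 9 two-colour arrays compared RNA called H with RNA called N of the same genotype, in 3 replicates each of wild type worms (wt in the labels), hif-1 mutants and vhl-1 mutants. The series is titled for hypoxia, so H is read as hypoxia and N as normoxia; the labels give no allele, worm stage, tissue, oxygen level or duration, and do not say whether replicates were separate cultures. hif-1 encodes the oxygen-regulated subunit of the hypoxia-inducible factor, and VHL-1 is the part of a ubiquitin ligase that marks this subunit for degradation. Neither gene has a named spot, so the genotypes could not be checked in these values. All values below are log2 ratios of H over N with each array's median set to 0. No source states the log base or which channel was divided by which: the deposited value was taken as a log2 of Cy5 over Cy3, that is N over H, and its sign was turned. This direction is likely, not certain, and with the other every rise below would be a fall. F22B5.4, a known target of HIF-1, was the only tested gene of a list of such targets. Under this reading it rose in H in wild type (2.26, adjusted p = 0.00813). It was at 0.21 in hif-1 mutants (adjusted p = 0.793) and at 0.30 in vhl-1 mutants (adjusted p = 0.623). The difference between hif-1 mutants and wild type, -2.05, did not pass the limma test described below (adjusted p = 0.603). This list was chosen with earlier results of these data known, so the gene is no independent check of the direction. On every array H carried Cy3 and N carried Cy5. Within a genotype, or averaged over genotypes, a dye effect on a spot and a response to H thus cannot be told apart. Between genotypes an equal dye effect cancels. Each array gave values for 21296 to 21487 spots. In such bulk RNA fewer cells of a type and less RNA per cell cannot be told apart either. P-values measure only the spread between these arrays, which may be technical.

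Few pals genes passed a test of the response to H: 0 in wild type, 1 in hif-1 mutants and 2 in vhl-1 mutants. In wild type 0 of the 22 members passed the test of limma, beside 1.42% of all features. limma is a linear model fitted to all features, with p-values adjusted over all 20858 of them. Tested and adjusted alone, 0% of the 7179 named genes, to which all members belong, passed in wild type. At an unadjusted p under 0.05 there was 1 member, pals-2, against 13.1% of all features. In hif-1 mutants 1 member passed, pals-3, which was higher in H; 0.475% of all features passed in that direction and 1.75% in either. At an unadjusted p under 0.05 there were 3, pals-3, pals-22 and pals-29, against 20.3%. In vhl-1 mutants 2 members passed, pals-26 higher (4.03% of all features were called higher) and pals-38 lower (5.15% were called lower), together 9.09% of the members beside 9.18% of all features. At an unadjusted p under 0.05 pals-7 joined them, against 27% of all features. Averaged over the 3 genotypes 2 members passed, pals-29 and pals-38, both lower in H, as did 10.5% of all features in that direction and 21.5% in either. At an unadjusted p under 0.05 there were 6, against 36.4%. The median response of the 22 members was -0.22, -0.15 and -0.10 in wild type, hif-1 and vhl-1 mutants, beside medians of 0.01, 0.02 and -0.00283 over all features. Below 0 were 18, 18 and 12 members in the same order. On every array of a genotype 3 members were below 0 in wild type (19.5% of all features), 4 in hif-1 mutants (19.1%) and 8 in vhl-1 mutants (27.2%), and 0, 1 and 4 were above it (19.2%, 17.9% and 27.8%). A response of 1 log2 unit or more in any genotype was seen for 4 of the 22 members, namely pals-3, pals-22, pals-26 and pals-38, and 10 stayed within 0.5 in all 3. The share of all features with such sizes was not computed, so whether the sizes set the family apart was not tested. The share with a genotype mean below 0 was not computed either, but the medians over all features lay near 0. The member median in wild type ran from -0.41 to 0.01 as single arrays were left out.

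**Figure D1:**
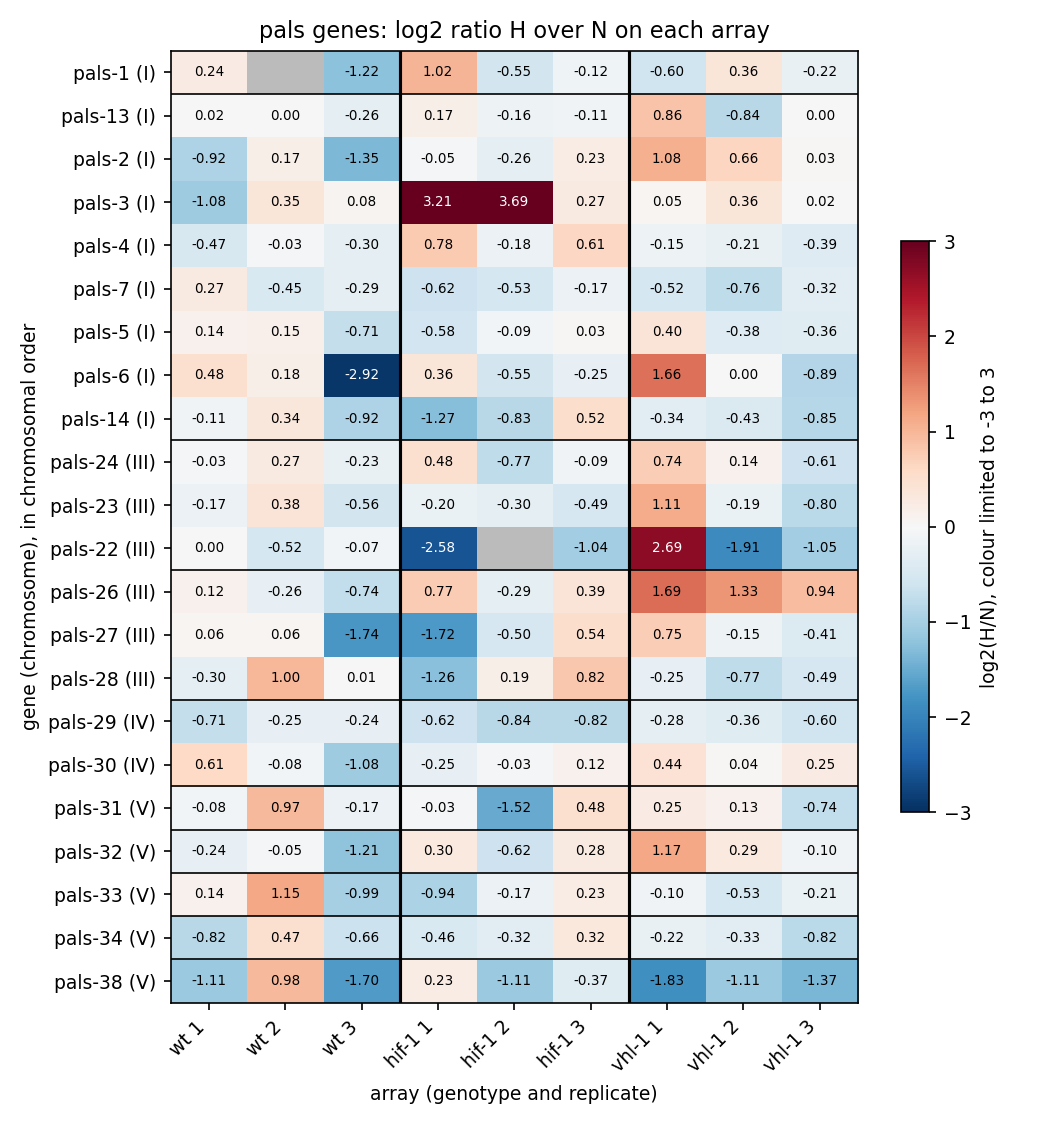
Log2 ratio of H over N for the 22 pals genes (rows, in chromosomal order, lines between genomic clusters) on each of the 9 arrays (columns, by genotype and replicate), with the value printed in each cell, grey for a missing value and colours limited to -3 to 3. The highest values are those of pals-3 on hif-1 arrays 1 and 2 (3.21 and 3.69), and pals-29 is below 0 on all 9 arrays.

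pals-3 (C17H1.4; chromosome I, 13107492 to 13114188, WBcel235) gave the largest response of any member. On the 3 hif-1 arrays its log2 ratio was 3.21, 3.69 and 0.27. On the wild type arrays it was -1.08, 0.35 and 0.08, and on the vhl-1 arrays 0.05, 0.36 and 0.02. hif-1 arrays 1 and 2 thus stood far above all others, while hif-1 array 3 lay within the range of wild type and below the highest vhl-1 value. Only 13 features had a higher ratio than pals-3 on hif-1 array 1 and 10 on array 2, against 5652 on array 3. The mean response in hif-1 mutants was 2.39 ± 1.85 (SD, n = 3; SE of the fit 0.496, 95% interval 1.32 to 3.46, adjusted p = 0.0327), a 5.25-fold rise. In wild type the mean was -0.22 ± 0.76 (SD, n = 3; adjusted p = 0.899). vhl-1 mutants gave 0.14 ± 0.19 (SD, n = 3; adjusted p = 0.878).

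The call of pals-3 rested on those 2 arrays: it was 1.98 without hif-1 array 1 (adjusted p = 0.129), 1.74 without array 2 (0.149), and 3.45 without array 3 (0.00401). It was also lost with arrays scaled to the same spread (1.99, adjusted p = 0.0637), with array weights (1.62, 0.155), with hif-1 arrays alone (0.109), with named genes alone (0.0572) and with each stretch of spot numbers centred on its own median (2.015, 0.0554). The last of these bears on hif-1 array 1. The spot lies in the 25th of 32 such stretches, whose median on that array was 0.96, the highest of the 32. Relative to its stretch pals-3 stood at 2.26 on hif-1 array 1, at 3.60 on array 2 and at 0.19 on array 3. Medians of the 5 measured epidermal genes, the only marker list with a named spot, were -0.21, 1.53 and 0.26 on hif-1 arrays 1 to 3, against 0.04 to 0.16 in wild type and 0.18 to 0.61 in vhl-1 mutants. Their part in the response of pals-3 was not tested.

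The annotated span of pals-3 starts at the same base as that of pals-12 (13107492 to 13109778) and overlaps that of pals-4 at its other end (13113487 to 13116434). pals-12 had no named spot, and the probe sequences were not used here, so whether the pals-3 spot also binds transcripts of these or other family members was not tested. pals-4 was at 0.78, -0.18 and 0.61 on the hif-1 arrays, with a mean of 0.40 ± 0.51 (SD, n = 3; adjusted p = 0.355). On hif-1 array 2, where pals-3 was highest, pals-4 was thus below 0. The pals-4 spot lies in the same stretch as the pals-3 spot, and relative to it stood at -0.18, -0.27 and 0.53.

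pals-3 belongs to the largest cluster, 14 genes within 61.3 kb of chromosome I (13083321 to 13144623), of which 8 were measured. None of the other 7 passed the test in hif-1 mutants, where their means ran from -0.53 to 0.40 with adjusted p of 0.293 or more, and their 21 single values ran from -1.27 to 0.78. Both high values of pals-3 thus lay above every hif-1 value of its measured cluster neighbours. In wild type all 8 genes of the cluster had means below 0, from -0.75 to -0.08, with none past the test, and in vhl-1 mutants 4 lay above and 4 below 0. The 6 measured genes within 20 kb of these pals genes that are not of the family had hif-1 means from -0.71 to 0.69, none past the test.

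**Figure D2:**
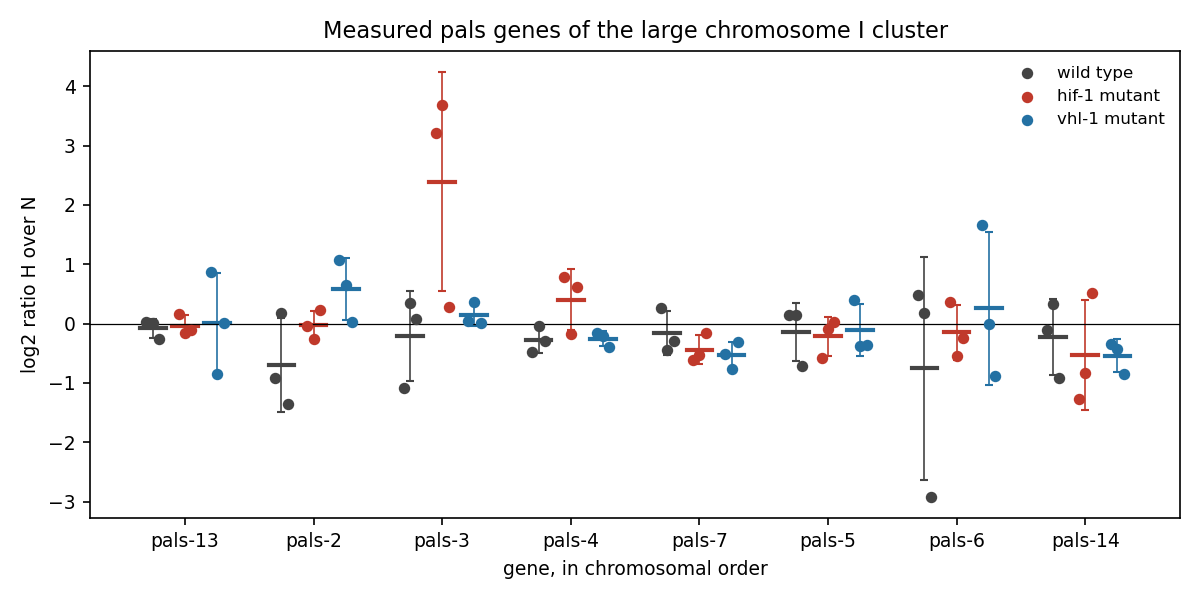
Log2 ratio of H over N for the 8 measured genes of the chromosome I cluster, in chromosomal order; points are single arrays, horizontal lines the genotype means and bars the SD (n = 3 arrays per genotype). Only pals-3 in hif-1 mutants has values above 3, on 2 of 3 arrays, and pals-6 has the lowest value, -2.92 on wild type array 3.

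pals-5 (C17H1.6), the usual reporter gene of the intracellular pathogen response, passed no test. It was at 0.14, 0.15 and -0.71 in wild type, at -0.58, -0.09 and 0.03 in hif-1 mutants, and at 0.40, -0.38 and -0.36 in vhl-1 mutants. All 3 genotypes overlapped and straddled 0. The mean over genotypes was -0.16 with a 95% interval of -0.48 to 0.16 (adjusted p = 0.474), so a rise of 1 log2 unit lay outside the interval. pals-6 (C17H1.7) varied far more, at 0.48, 0.18 and -2.92 in wild type, 0.36, -0.55 and -0.25 in hif-1 mutants and 1.66, 0 and -0.89 in vhl-1 mutants. Its mean in wild type, -0.75 ± 1.88 (SD, n = 3; adjusted p = 0.603), came from array 3, the other arrays being above 0.

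pals-2 (C17H1.3) was at -0.92, 0.17 and -1.35 in wild type, at -0.05, -0.26 and 0.23 in hif-1 mutants and at 1.08, 0.66 and 0.03 in vhl-1 mutants. It was the 1 member with an unadjusted p under 0.05 in wild type, with a mean of -0.70 ± 0.79 (SD, n = 3; adjusted p = 0.328), and wild type and vhl-1 arrays overlapped through wild type array 2. pals-7 (C17H1.8) lay below 0 on 8 of 9 arrays, with values from -0.76 to 0.27. Its mean over genotypes of -0.38 missed the threshold (SE 0.130, adjusted p = 0.0552). This mean passed in 2 of 19 alternatives, among them without wild type array 1 (0.0431), and adjusted p reached 0.149 in others. pals-14 (F22G12.1) lay below 0 on 7 of 9 arrays, with a mean over genotypes of -0.43 (adjusted p = 0.117). That mean also passed in 2 of 19 alternatives, among them without hif-1 array 3 (0.0253), and adjusted p reached 0.268 in others. pals-13 (Y26D4A.8), at the cluster's edge, had genotype means within 0.08 of 0. pals-1 (F15D3.8), which lies alone on chromosome I (11579856 to 11581989), had no value on wild type array 2; its means were -0.49 (n = 2), 0.12 and -0.16 in wild type, hif-1 mutants and vhl-1 mutants, with adjusted p of 0.663 or more.

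pals-26 (B0284.1; chromosome III, 4375154 to 4378907) was the member that rose in vhl-1 mutants. There it was at 1.69, 1.33 and 0.94, against 0.12, -0.26 and -0.74 in wild type and 0.77, -0.29 and 0.39 in hif-1 mutants. Every vhl-1 array was above every array of the other genotypes. The mean response in vhl-1 mutants was 1.32 ± 0.37 (SD, n = 3; SE of the fit 0.264, 95% interval 0.75 to 1.89, adjusted p = 0.0100), a 2.49-fold rise, while wild type stood at -0.29 ± 0.43 (SD, n = 3; adjusted p = 0.673) and hif-1 mutants at 0.29 ± 0.54 (SD, n = 3; adjusted p = 0.571). The call was lost without vhl-1 array 1 (1.13, adjusted p = 0.0634) and without array 2 (1.31, 0.0808). Averaged over genotypes pals-26 was at 0.44 (adjusted p = 0.0565). This average passed in 4 of 19 alternatives, among them without wild type array 3 (0.0464) or hif-1 array 2 (0.0275). In others adjusted p reached 0.140. The span of pals-26 overlaps that of the pseudogene B0284.5.

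The other genes of its cluster, which spans 12.6 kb, passed no test. pals-27 (B0284.2) was at 0.75, -0.15 and -0.41 in vhl-1 mutants, with a mean of 0.06 ± 0.61 (SD, n = 3; adjusted p = 0.939). In the other genotypes it was lowest on wild type array 3 (-1.74) and hif-1 array 1 (-1.72). pals-28 (B0284.4) was at -0.25, -0.77 and -0.49 in vhl-1 mutants, below 0 on all 3 arrays, with a mean of -0.50 ± 0.26 (SD, n = 3; adjusted p = 0.377). In wild type and hif-1 mutants pals-28 ran from -1.26 to 1.00.

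**Figure D3:**
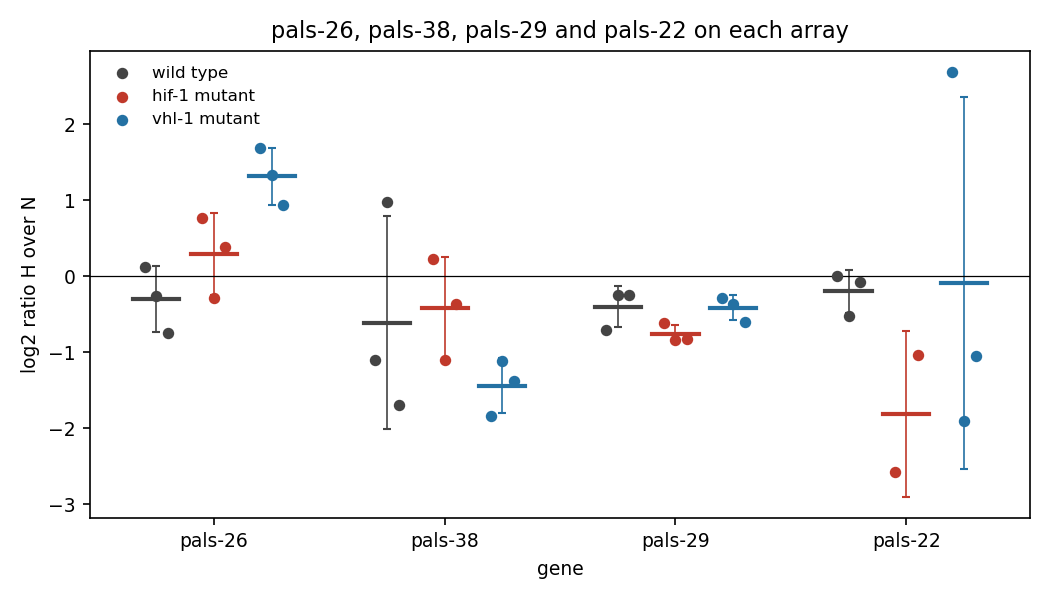
Log2 ratio of H over N for pals-26, pals-38, pals-29 and pals-22; points are single arrays, horizontal lines the genotype means and bars the SD (n = 3 arrays, 2 for pals-22 in hif-1 mutants). The vhl-1 arrays are the highest for pals-26 and all below -1.11 for pals-38, pals-29 is below 0 throughout, and pals-22 spans -2.58 to 2.69.

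pals-22 (C29F9.1; chromosome III, 132418 to 134401), the repressor of the response, had the widest spread between arrays of the same genotype, with a residual SD of 1.63 that exceeded that of 99.7% of all features. It was at 0.00, -0.52 and -0.07 in wild type, close together. In hif-1 mutants it was at -2.58 and -1.04 on arrays 1 and 3, had no value on array 2, and so entered the fit with 2 arrays there. In vhl-1 mutants it was at 2.69, -1.91 and -1.05, so array 1 lay far above 0 and the others far below it. The mean in hif-1 mutants was -1.81 ± 1.09 (SD, n = 2; 95% interval -3.52 to -0.10, adjusted p = 0.225) and in vhl-1 mutants -0.09 ± 2.45 (SD, n = 3; adjusted p = 0.942), neither past the test.

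The calls for pals-22 turned on that single vhl-1 array. Without vhl-1 array 1 the response was -1.81 in hif-1 mutants (adjusted p = 0.0428), -1.48 in vhl-1 mutants (0.0487) and -1.16 averaged over genotypes (0.00420), each then past the threshold. The hif-1 mean itself did not move, as no hif-1 array was left out. It passed in 1 of 17 alternatives, and not with hif-1 arrays alone (adjusted p = 0.142). The other measured genes of this 17.5 kb cluster passed no test. pals-23 (C29F9.3) was at 1.11 on vhl-1 array 1 and between -0.80 and 0.38 on all other arrays, with a mean over genotypes of -0.14 (adjusted p = 0.617). pals-24 (C29F9.4) had a mean over genotypes of -0.01 (adjusted p = 0.970). Its 2 spots differed by 0.12 to 0.81 on the same array, without regard to sign. The antagonist pals-25 had no named spot.

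pals-29 (T27E7.6, chromosome IV, 14539685 to 14542617) was lower in H by a small amount on all 9 arrays. It was at -0.71, -0.25 and -0.24 in wild type, -0.62, -0.84 and -0.82 in hif-1 mutants and -0.28, -0.36 and -0.60 in vhl-1 mutants. It was the only member on the same side of 0 on all 9 arrays, as were 5.24% of all features on that side and 5.32% on the other. Its mean over genotypes was -0.52 (SE 0.121, 95% interval -0.79 to -0.26, adjusted p = 0.00954), a 1.44-fold fall, and it passed in all 19 alternatives, with adjusted p from 0.00564 to 0.0359. In no single genotype did it pass, the lowest adjusted p being 0.0772 in hif-1 mutants. Its residual SD, 0.194, was the smallest of the members, and only 2.84% of all features had a smaller one. The annotated span of pals-29 also holds several piRNA genes. H carried Cy3 on every array, so a dye effect on the pals-29 spot and a response to H cannot be told apart. pals-30 (Y57G11B.1), in the same 12.3 kb cluster, ran from -1.08 to 0.61, with a mean over genotypes of 0.00194 (adjusted p = 0.994).

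pals-38 (C54D10.8; chromosome V, 12445164 to 12446995) was lower in H in vhl-1 mutants. It was at -1.83, -1.11 and -1.37 there, at -1.11, 0.98 and -1.70 in wild type and at 0.23, -1.11 and -0.37 in hif-1 mutants. All vhl-1 arrays lay below the hif-1 arrays, by under 0.01 for the closest pair. They overlapped those of wild type, in which array 3 was among the lowest and array 2 lay on the other side of 0. The mean in vhl-1 mutants was -1.44 ± 0.36 (SD, n = 3; SE of the fit 0.411, 95% interval -2.33 to -0.55, adjusted p = 0.0465), against -0.61 ± 1.40 in wild type (SD, n = 3; adjusted p = 0.561) and -0.41 ± 0.67 in hif-1 mutants (SD, n = 3; adjusted p = 0.611). Averaged over genotypes it was at -0.82 (SE 0.238, adjusted p = 0.0281), a call lost in 7 of 19 alternatives. These were without wild type array 1 or 3, hif-1 array 2, or vhl-1 array 1 or 3 (adjusted p from 0.0601 to 0.0764), with spot blocks centred (0.0532) and with array weights (0.0586). The vhl-1 call was lost in 10 of 20 alternatives, among them those without each of the vhl-1 arrays in turn (adjusted p of 0.169, 0.150 and 0.179 without array 1, 2 and 3), without wild type array 1 (0.0533) or without hif-1 array 3 (0.0615), and with the replicate number as a block (0.0501). The other 3 genes of its cluster had no named spot.

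The remaining members lie apart from each other on chromosome V and none passed any test. pals-31 (F48G7.2) ran from -1.52 to 0.97, pals-33 (W08A12.4) from -0.99 to 1.15 and pals-34 (F26D11.6) from -0.82 to 0.47. pals-34 was below 0 on 7 of 9 arrays, with a mean over genotypes of -0.32 (95% interval -0.66 to 0.03, adjusted p = 0.175). pals-32 (C31B8.4), which overlaps the receptor gene str-46, was at -0.24, -0.05 and -1.21 in wild type, 0.30, -0.62 and 0.28 in hif-1 mutants and 1.17, 0.29 and -0.10 in vhl-1 mutants. The wild type and vhl-1 arrays overlapped through vhl-1 array 3.

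Comparisons between genotypes ask whether the response to H depends on hif-1 or vhl-1, and in these no pals gene passed the test of limma. For hif-1 mutants against wild type, 0 of 22 members and 0% of all features passed. At an unadjusted p under 0.05 there was 1 member, against 5.94% of all features: pals-3, with a difference of 2.61 (SE 0.701, 95% interval 1.09 to 4.12, adjusted p = 0.603). For vhl-1 mutants against wild type, 0 members and 0.00479% of all features passed. The members at an unadjusted p under 0.05 were 3, against 10.1% of all features, and all were higher in vhl-1 mutants: pals-26 with a difference of 1.61 (SE 0.373, adjusted p = 0.278), pals-2 with 1.29 (SE 0.417, adjusted p = 0.325) and pals-32 with 0.95 (SE 0.433, adjusted p = 0.482). With array weights pals-26 passed in this comparison (1.61, adjusted p = 0.0403), a setting in which 1.19% of all features passed. For vhl-1 mutants against hif-1 mutants, 0 members and 0% of all features passed, and at an unadjusted p under 0.05 pals-3 (-2.25, SE 0.701) and pals-26 (1.03, SE 0.373) were found, both with an adjusted p of 0.768, against 6.41% of all features. Without hif-1 array 3 pals-3 passed here (-3.31, adjusted p = 0.0423), as did 0.0195% of all features. The F test for any difference among genotypes also called 0 members (0% of all features) and gave 3 at an unadjusted p under 0.05, pals-2, pals-3 and pals-26, against 8.36% of all features.

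The arrays of a pair of genotypes did not overlap for 4 members. pals-26 was higher in vhl-1 mutants than in wild type, as were 9.29% of all features, and 0 members were lower (9.21%). pals-22 was lower in hif-1 mutants than in wild type on the 2 arrays with a value, as were 5.13% of all features, and 0 members were higher (4.48%). pals-26 and pals-29 were higher in vhl-1 than in hif-1 mutants (5.94% of all features), and pals-38 was lower (5.67%). The median 95% interval of a member's difference reached 0.95 log2 units to each side. For hif-1 mutants against wild type the interval lay within 1 unit of 0 for only 5 of the 22 members, and for vhl-1 mutants against wild type for 6, so for most members the interval reached differences of 1 unit or more.

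**Figure D4:**
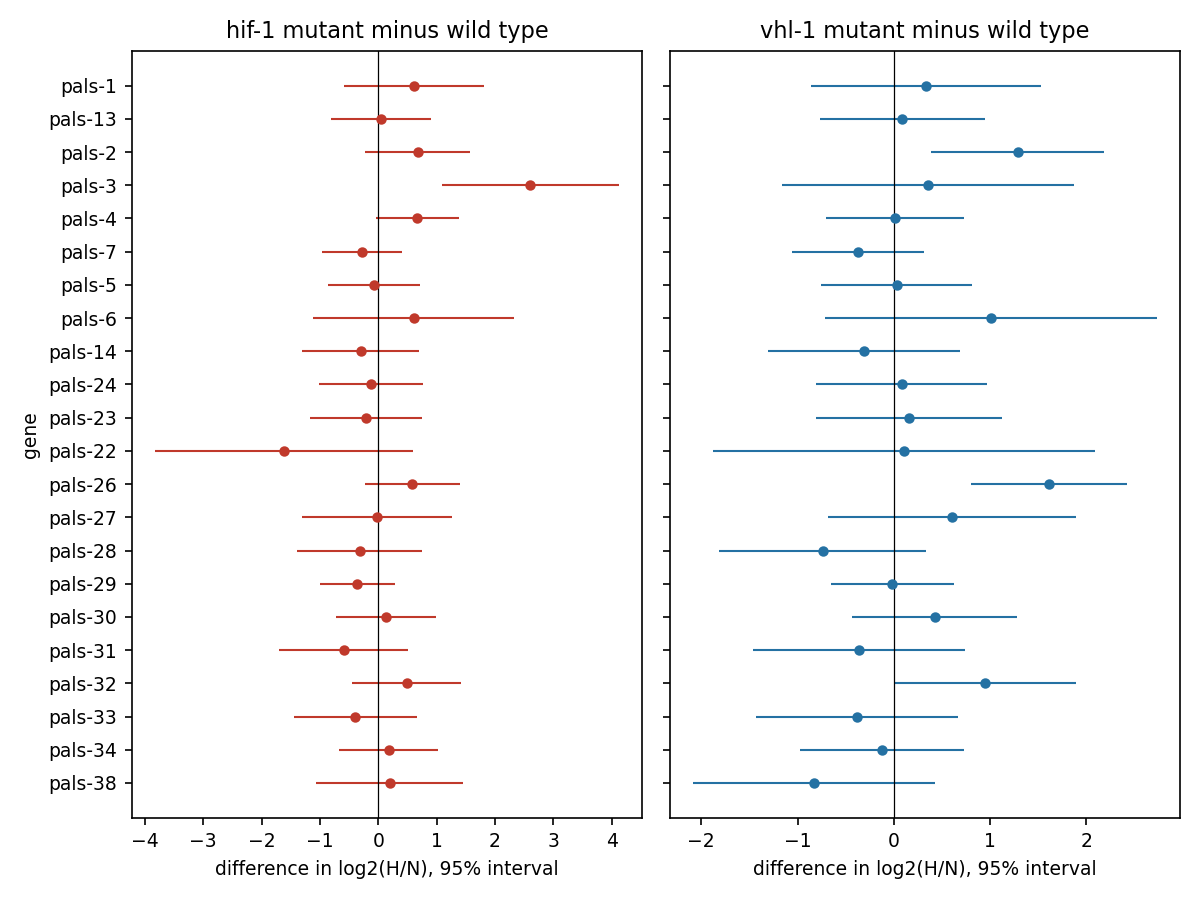
Difference in the log2 ratio of H over N between hif-1 mutants and wild type (left) and between vhl-1 mutants and wild type (right) for the 22 pals genes in chromosomal order, with unadjusted 95% intervals from the fit. The intervals lie clear of 0 for pals-3 on the left (2.61) and for pals-2, pals-26 and pals-32 on the right, and none passed after adjustment over all features.

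Spread between arrays was wide for much of the family: 17 of the 22 members had a residual SD above 0.457, the median over all features. The highest, that of pals-22, was 8.39 times the lowest, that of pals-29. On some arrays most members lay on the same side of 0. On wild type array 3, 20 of 22 members were below 0 with a member median of -0.68, while 53.2% of named genes were below 0 there. On hif-1 array 2, 19 of 21 members with a value were below 0 (55.2% of named genes), with a median of -0.32. On vhl-1 array 3 it was 17 of 22 (53.9% of named genes), with a median of -0.40. The other way the lean was weaker: 14 of 21 members were above 0 on wild type array 2 (median 0.17), 13 of 22 on hif-1 array 3 (median 0.18) and 13 of 22 on vhl-1 array 1 (median 0.32). Below 0 on these arrays were 33.3%, 40.9% and 40.9% of members, beside 52.0%, 48.0% and 50.7% of named genes. Member medians of the same genotype thus lay on both sides of 0, and the member median in wild type was 0.01 without array 3 and -0.41 without array 2.

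**Figure D5:**
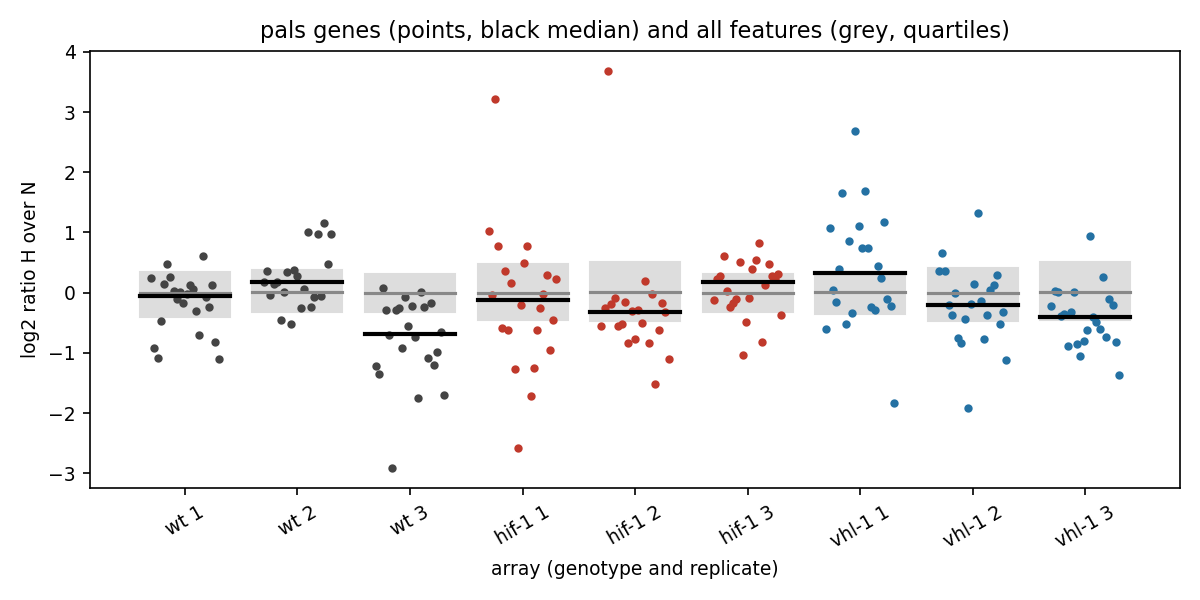
Log2 ratio of H over N of the pals genes on each of the 9 arrays (points, with the member median as a black line) beside the quartiles (grey box) and median (grey line) of all features. The member medians run from -0.68 on wild type array 3 to 0.32 on vhl-1 array 1, with both signs within each genotype.

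Other genes of the intracellular pathogen response showed few calls as well. Of a list of such genes outside the family, 13 were tested, among them pnp-1, the purine nucleoside phosphorylase that restrains the response. None passed in any single genotype, where 1.42%, 1.75% and 9.18% of all features did. At an unadjusted p under 0.05 there were C43D7.4 in wild type (13.1% of all features), F26F2.5 in hif-1 mutants (20.3%), and C43D7.4 and pnp-1 in vhl-1 mutants (27%). Averaged over genotypes 1 of 13 passed, beside 21.5% of all features: C43D7.4, lower in H (-0.49, SE 0.124, adjusted p = 0.0158) and below 0 on all 9 arrays, from -0.80 to -0.02. pnp-1 lay above 0 on all 9 arrays, with a mean over genotypes of 0.36 that did not pass (adjusted p = 0.0807). The list's medians were -0.34, -0.26 and -0.00383 in wild type, hif-1 mutants and vhl-1 mutants. Array by array, 11 of the 13 were below 0 on wild type array 3 (median -0.50), 10 on vhl-1 array 3 (-0.53), and 4 on vhl-1 array 1 (0.28). On hif-1 array 2 it was 7 of 13 (-0.15). On wild type array 2 and hif-1 array 3, where most pals genes were above 0, 7 of the 13 were below 0 on each (medians -0.04 and -0.02). What these arrays share was not tested.

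Heat sets off part of the same program. All 4 tested genes of a heat shock list rose in H averaged over genotypes, with means from 0.85 to 2.89, beside 21.5% of all features called in either direction. In hif-1 mutants 3 passed (1.75% of all features), in vhl-1 mutants 2 (9.18%) and in wild type 1 (1.42%). This list was chosen with earlier results of these data known, so the rise of its genes is no independent check. Of 5 tested genes on a list of bacterial immunity effectors 1 passed in vhl-1 mutants, beside 9.18% of all features: irg-6, an infection response gene that fell by 1.60 (± 0.53, SD, n = 3; adjusted p = 0.00661). The other 4, irg-4, irg-5, irg-8 and K08D8.5, had means above 0 there, from 0.39 to 0.72, none past the test, and the median of the list was 0.52. In hif-1 mutants irg-6 did not pass (adjusted p = 0.0913), and it was at -0.53 ± 0.65 (SD, n = 3) in wild type. On the lists of chitinase-like genes, SCF ubiquitin ligase subunits and antiviral RNA interference no gene had a named spot, nor did any on the marker lists of intestine, sperm, germ line, neurons and muscle. The tissue could therefore not be checked, and of the 5 epidermal genes 0 passed in any genotype.

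Genes next to the measured pals genes were compared as well. Of 43 tested neighbours, those starting within 20 kb of a measured member, 0 passed in wild type (1.42% of all features) and 1 in hif-1 mutants (1.75%). In vhl-1 mutants 6 of the 43 passed, 3 higher and 3 lower, beside 9.18% of all features. Averaged over genotypes 10 of the 43 passed, 5 higher and 5 lower, beside 21.5% of all features, which is near the background share. C29F9.5, in the region of pals-22, pals-23 and pals-24, was higher in H averaged over genotypes (0.98, adjusted p = 0.00202) and above 0 on all 9 arrays. F48G7.5, in the region of pals-31, was lower in hif-1 mutants (-1.51, adjusted p = 0.0289) and in vhl-1 mutants (-1.04, adjusted p = 0.0485), and at 0.38 in wild type. pals-31 itself was at -0.36 and -0.12 in those mutants, with no call. On wild type array 3, where 20 of 22 pals genes were below 0, this held for 22 of the 43 neighbours, with a median of -0.03.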

How the data were processed

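Total RNA was compared on 9 two-colour arrays, 3 per genotype. The deposited values were read as log2 ratios that the authors had brought close to a median of 0 (array medians -0.062 to 0.061); how they scanned, filtered and normalised is not given in the sources used here. Of 21888 spots 7774 carried 1 gene name, 0 several and 14114 none, per the platform annotation, and 7741 matched the RefSeq gene table of WBcel235. Probe sequences were not used. Signs were turned to H over N, array medians set to 0 and spots of a gene averaged. Features needed values on at least 2 arrays per genotype. limma 3.58.1 (R 4.3.3, statmod 1.5.0) fitted a mean per genotype over all 9 arrays, with 6 residual degrees of freedom and 6.95 added from the prior, without missing values. Tests were two-sided with Benjamini-Hochberg adjustment over all features and a threshold of 0.05; intervals are 95% and unadjusted. The script was tested on simulated data. The number of arrays limits the precision. Every tested pals gene was named; of neighbours and lists, genes past the threshold and a few with the lowest p could be named. Members and lists were chosen with earlier results of these data known. Clusters join pals genes whose starts lie within 50 kb. In all 20 alternatives were run. Correlations of deviations between arrays were -0.199 to 0.269 for equal replicate numbers, with 2 of 9 over 0.1, and -0.250 to 0.260 for others. The 2 ranges overlapped. Whether arrays with equal numbers were prepared together was not tested, as the labels do not say how replicates were made.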

Additional observations from a re-analysis of the deposited data

How the results depend on the processing

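The number of pals genes passing in hif-1 mutants, 1 as reported, was 0 with arrays scaled to the same spread, with named genes only, with spot blocks centred, with array weights and with only the arrays compared, and 0 to 2 when single arrays were left out. Over all features the share was 1.75% as reported and 0.489%, 0.251%, 1.63% and 0.839% in the first 4 of these settings. Without single arrays it was 0.282% to 1.7%. In vhl-1 mutants the number, 2 as reported (9.18% of all features), was 1 with scaled arrays (6.38%), with named genes only (4.21%), without places that hold no named spot (6.44%) and with spot blocks centred (11%), and 0 to 2 without single arrays (2.01% to 12.7%). With the replicate number as a block it was 1 (8.75% of all features), and between genotypes 0 members and 0% of all features passed. The block moved the response of pals-22 in hif-1 mutants, where an array lacks a value, from -1.81 to -2.35. Averaged over genotypes the number of pals genes passing was 1 to 4 without single arrays, beside 13% to 20.4% of all features. For vhl-1 mutants against wild type the number was 1 with array weights in place of 0, where 1.19% of all features passed in place of 0.00479%. For vhl-1 against hif-1 mutants it was 0 to 1 without single arrays, beside 0% to 0.0195% of all features. The counts in wild type, for hif-1 mutants against wild type and for any difference were 0 in every alternative. Leaving out single arrays moved the median of the members from -0.41 to 0.01 in wild type, from -0.25 to -0.07 in hif-1 mutants and from -0.37 to 0.10 in vhl-1 mutants. pals-29 passed averaged over genotypes in all its alternatives; pals-3 kept its call in 13 of 20, pals-26 in 18 and pals-38, in vhl-1 mutants, in 10. Averaged over genotypes, the calls gained included those of pals-26 with the block (adjusted p = 0.0491) and of pals-3 without hif-1 replicate 3 (1.13, adjusted p = 0.00176). Of 3016 values of single pals genes 26 lost and 14 gained a call, and none that was called changed sign. Among those not called 177 changed sign, 7 of them among the 21 members fitted for the wild type response without wild type replicate 3. Causes other than fewer arrays or features were not tested. With 3 arrays per genotype, intervals of genotype differences mostly reached 1 log2 unit or more.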
